A study of Saccharomyces cerevisiae with 11 samples.

Results

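The 7 genes described here are the auxotrophic marker genes HIS3, LEU2, LYS2 and URA3, the HIS3 neighbours MRM1 and DED1, and ADH1, the gene whose promoter drives OsTIR1 in the engineered strain. They were chosen by name, with 1 kb on each side of the marker genes and 1 kb upstream of ADH1, and are 7 of 5976 nuclear open reading frames (ORFs) measured. Micrococcal nuclease digests the DNA between nucleosomes, and the fragments left behind were sequenced and counted over every base. Coverage was divided by the library's own mean over the nuclear chromosomes without the ribosomal DNA, and is given as relative coverage, where 1 is the library mean. It reports sequence copy number and nucleosome protection together, and the data hold no measure that separates them.

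All cells were Saccharomyces cerevisiae of the BY4742 background grown in galactose, and all carried Top1-AID and Top2-AID, topoisomerases I and II fused to an auxin-inducible degron. Strain yTL1245 had no OsTIR1 (4 libraries). Strain yTL1290 also carried pADH1-OsTIR1, the rice F-box protein that directs degron-tagged proteins to degradation when auxin is present (7 libraries). By label, 4 of these 7 were untreated and 3 came from cells given 500 uM auxin for 60 minutes. Spheroplasts were digested with 0.0117 U (low) or 0.1875 U (high) of nuclease. Each strain is a single engineered line, so the construct and anything else that differs between the lines cannot be told apart. Per the growth protocol, treated and untreated OsTIR1 cells came from 1 culture that was split. No label says that replicates came from separate cultures, so p-values measure the spread between these libraries, which may be technical.

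BY4742 is a designer laboratory strain with the alleles his3Δ1, leu2Δ0, lys2Δ0 and ura3Δ0. The last 3 remove the whole gene, while his3Δ1 removes an internal stretch of the HIS3 ORF, and each leaves the cell dependent on the supplied nutrient. Such cells are transformed with constructs that carry a working copy of one of these genes, and engineered DNA is often placed at a marker locus. ADH1 encodes the main alcohol dehydrogenase of fermenting cells, and its strong promoter is a common choice for constant expression of a foreign gene.

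The libraries held 8906121 to 31138013 nuclear fragments, with a mean coverage of 111 to 332 fragments per base. In 6 libraries the mean fragment length was 129 to 140.3 bp (short-fragment libraries: 2 without OsTIR1 and 4 with it). In the other 5 it was 149.8 to 162.2 bp (long-fragment libraries: 2 without OsTIR1 and 3 with it). The labelled strain was the same as the strain in the submitters' names for the data in all 11 libraries. The labelled nuclease dose differed from that in the name in 4 libraries, and the auxin state differed in 1, the library labelled untreated OsTIR1 high replicate 2. The fragment length class matched the dose in the name in all 11 libraries. Strains were therefore compared over all 11 libraries with the measured mean fragment length as a term, or within fragment length classes.

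Of the 5976 ORFs, 3 had a relative coverage of 0.01 or less in all 11 libraries, and these were LEU2, LYS2 and URA3. HIS3 was at or under 0.01 in all 7 OsTIR1 libraries and in none of the 4 without OsTIR1. No other ORF was at or under 0.01 in all libraries of either strain.

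**Figure D1:**
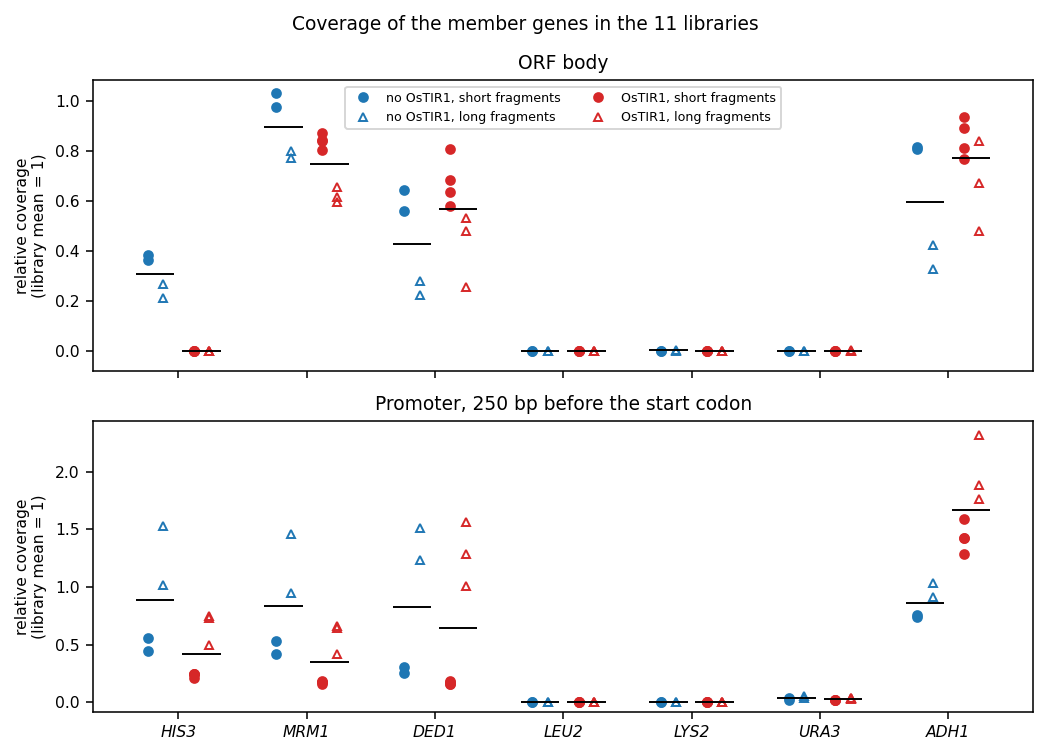
Relative coverage (library mean = 1) of the ORF body (top) and of the 250 bp before the start codon (bottom) for the 7 genes in each of the 11 libraries. Filled circles are short-fragment and open triangles long-fragment libraries, colours are strains, and the black bar is the mean of a strain. HIS3 bodies are near 0 with OsTIR1, while the ADH1 promoter lies between 1.29 and 2.32 in the 7 OsTIR1 libraries and between 0.744 and 1.04 in the 4 others.

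LEU2, which encodes beta-isopropylmalate dehydrogenase of leucine synthesis, lies on chromosome III at bases 91324 to 92418 on the + strand (build sacCer3, used for all positions). No fragment covered any base of the LEU2 ORF in any of the 11 libraries. The longest run of uncovered bases over the ORF was 1495 to 1510 bp long in single libraries. Its right end was at bases 92477 to 92489, past the stop codon, and at the median edges 63 bp past it without OsTIR1 and 60 bp with OsTIR1. On the left the run ended at a short island of coverage over SUP53, a leucine transfer RNA gene at bases 90859 to 90972. Beyond this island lay a further uncovered stretch, and ordinary coverage stopped at bases 90769 to 90771 in 10 of 11 libraries, 553 to 555 bp before the LEU2 start codon. In the library labelled no OsTIR1 low replicate 1 there was no separate island. Coverage under 0.05 of the library mean ran unbroken from base 90767 to 90981 there, and the left edge was read at base 90982.

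The SUP53 island was thin. In the short-fragment libraries its relative coverage was 0.00724 and 0.0113 without OsTIR1 and 0.0211 to 0.0336 in the 4 libraries with OsTIR1, with at most 6 fragments over a base. In the long-fragment libraries it was 0.0261 and 0.0329 without OsTIR1, and 0.0333, 0.0968 and 0.148 with OsTIR1, with up to 27 fragments over a base. The OsTIR1 libraries were higher in both classes, in the long-fragment class by as little as 0.0333 against 0.0329. These values rest on few fragments. Without OsTIR1 at most 4 lay over a base in short-fragment and 7 in long-fragment libraries. OsTIR1 was also above without overlap in 6.24% (short-fragment) and 30.9% (long-fragment) of 100 bp tiles inside ORFs. The difference at SUP53 was not tested. Transfer RNA genes have near-identical copies elsewhere in the genome, and from which copy these fragments came was not tested.

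LYS2, which encodes alpha-aminoadipate reductase of lysine synthesis, lies on chromosome II at bases 469748 to 473926 on the - strand. Coverage stopped at base 469727, 21 bp past the stop codon, in 9 of 11 libraries. On the other side it resumed after bases 474216 to 474227. The median edge there lay 295 bp upstream of the start codon with OsTIR1 and 298 bp without. The gap between these edges was 4490 to 4508 bp in the 7 OsTIR1 libraries and 4438 to 4498 bp in the 4 others. The median was 4495 bp with OsTIR1 and 4490.5 bp without.

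Single fragments lay inside the LYS2 gap in 3 libraries. The library labelled no OsTIR1 low replicate 1 had 9 separate covered runs, with 14.0 fragments in all and no more than 3 over any base. The libraries labelled no OsTIR1 high replicate 2 and OsTIR1 auxin low replicate 1 held 1.25 and 1.15 fragment equivalents. In no OsTIR1 high replicate 2 part of this was the tail of coverage that ran on unbroken from the RAD16 side. The edge was read at base 469789 there, and the gap at 4438 bp. The other 8 libraries had none, and the highest LYS2 body value was 0.00233. The source of these fragments was not tested.

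URA3, which encodes the OMP decarboxylase of uracil synthesis, lies on chromosome V at bases 116167 to 116970 on the + strand. Coverage stopped at base 115951, 216 bp before the start codon, in 9 of 11 libraries. It resumed after bases 117043 to 117046 in 10 libraries and after base 117077 in the library labelled no OsTIR1 high replicate 2. The gap was 1093 to 1096 bp long in the 7 OsTIR1 libraries and 1093 to 1127 bp in the 4 others. A single fragment at bases 116498 to 116644 lay inside it in OsTIR1 low replicate 1, and none in the other 10 libraries. The median edges, 115951 and 117044, were the same base in both strains.

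**Figure D2:**
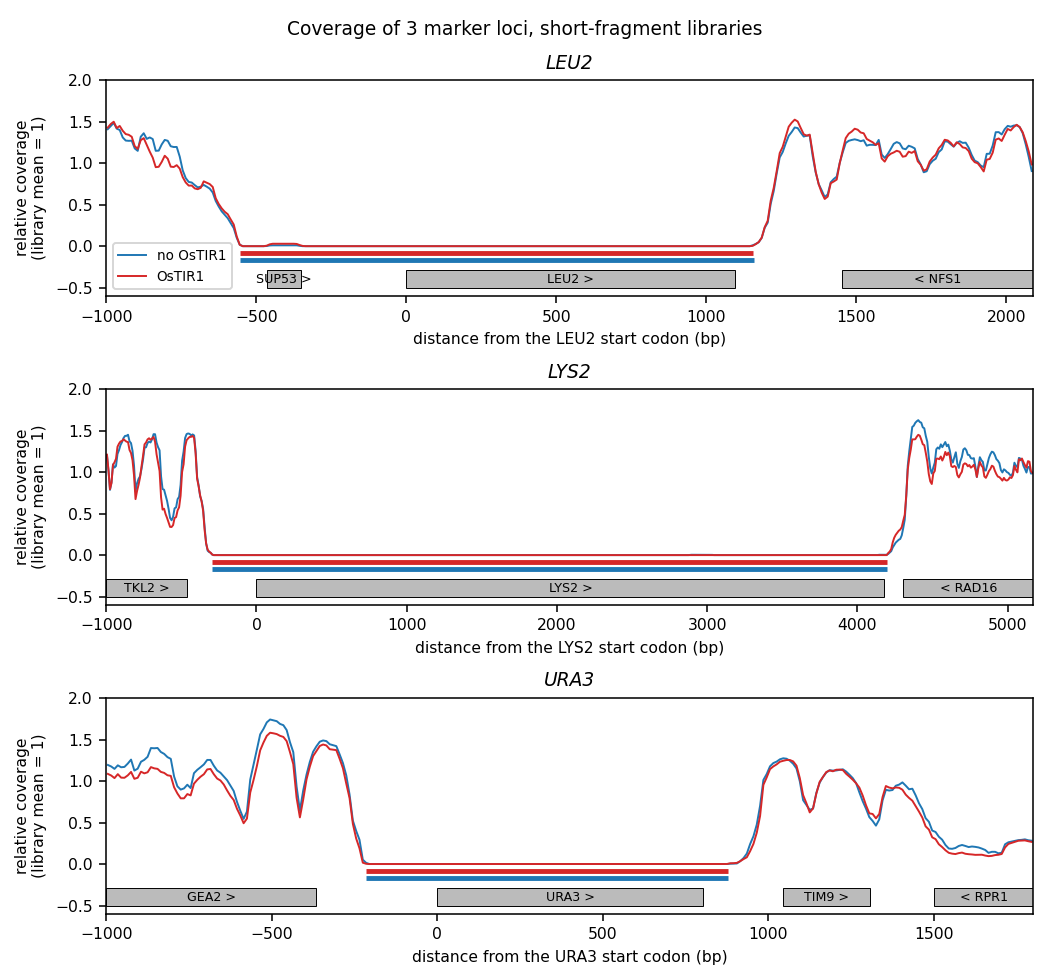
Mean relative coverage of the short-fragment libraries (library mean = 1, bins of 10 bp) across LEU2, LYS2 and URA3, against distance from each start codon in the direction of the gene. Blue is the strain without OsTIR1 (2 libraries) and red the strain with it (4 libraries). Thick lines under the profiles mark the gap between the median edges of each strain, and grey boxes are annotated genes. Both strains lose coverage over the same stretch at all 3 loci.

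Most of the nucleosome peaks beside these gaps lay at similar positions in both strains. Peaks were read in short-fragment libraries, where linkers are digested. Left of URA3, just past the end of GEA2 (an exchange factor for ARF GTPases), the last peak lay at base 115823 without OsTIR1 and 115824 with it, 128 and 127 bp from the edge. Right of URA3 the first peak lay at 117214 and 117224, over the start of TIM9, which encodes a chaperone of mitochondrial protein import. Right of LEU2 the first peak was at 92623 and 92621, which is 142 and 143 bp from the edge. Beside LYS2 the last peak before the gap, over RAD16 (a nucleotide excision repair gene), was at 469525 and 469519. The first peak past it, just beyond the 3′ end of TKL2 (a transketolase gene), was at 474379 and 474360. The exception was the left side of LEU2, where the last peak of the mean profile was at 90446 without OsTIR1 (height 1.34) and at 90650 with it (height 0.773). The peak at 90446 was also found in 2 of the 4 short-fragment OsTIR1 libraries, at bases 90444 to 90448. The peak at 90650 was not counted by library, so a shift between the strains cannot be read from this.

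The heights of the paired flanking peaks, in relative coverage, were 1.49 and 1.44 left of URA3, and 1.27 and 1.25 right of it. They were 1.43 and 1.52 right of LEU2, 1.62 and 1.45 on the RAD16 side of LYS2 and 1.47 and 1.43 on the TKL2 side, without and with OsTIR1 in each case. Coverage climbed to 0.5 of the library mean within 31 to 41 bp of the left URA3 edge and 89 to 101 bp of the right one in the short-fragment libraries. Over all 5 loci, 43 peaks could be paired between strains within 40 bp, of 59 without OsTIR1 and 53 with it. Of the pairs, 26 lay within 5 bp, the median shift was 3 bp and the largest 27 bp, at LYS2. The positions were not tested and are a description.

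HIS3 encodes imidazoleglycerol-phosphate dehydratase of histidine synthesis and lies on chromosome XV at bases 721946 to 722608 on the + strand. It was the marker gene whose coverage differed between the strains. Without OsTIR1, HIS3 body coverage was 0.364 and 0.384 in the short-fragment libraries and 0.269 and 0.211 in the long-fragment libraries. With OsTIR1 it was 0 in 6 of 7 libraries, and 0.000349 in OsTIR1 high replicate 1. The strains did not overlap, and the 3 auxin libraries were all at 0.

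HIS3 was at least 31.8-fold lower with OsTIR1, from the lowest library without OsTIR1 over the highest floor of an OsTIR1 library (the coverage that 3 fragments give). In the fit across all ORFs (limma on log2(relative coverage + 0.1), with mean fragment length as a term), HIS3 fell by 2.06 on the log2 scale (SE 0.0933, adjusted p = 6.66e-07). The size of this value is set by the pseudocount. HIS3 passed the filter of a mean of 0.1 only through the strain without OsTIR1. In that fit 2 of 5973 ORF bodies, 0.0335%, passed an adjusted p of 0.05, both lower with OsTIR1, and both are members, HIS3 and MRM1; 639 had an unadjusted p under 0.05. LEU2, LYS2 and URA3 did not pass the filter and were not tested. With limma's trended, robust variance model the HIS3 call was lost (adjusted p = 0.519), and limma called 0 ORF bodies, with 672 at an unadjusted p under 0.05. When no OsTIR1 low replicate 1, high replicate 1 or high replicate 2 was left out, the mean of HIS3 fell under the filter and it was not tested.

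The base-level map showed a gap of different extent in each strain. Without OsTIR1 an internal stretch of HIS3 was uncovered, with edges at 722259 and 722439, 722252 and 722438, 722246 and 722468, and 722255 and 722467 in the 4 libraries. These gaps were 181, 187, 223 and 213 bp long, and bases 722259 to 722438 (180 bp) were uncovered in all 4. The deepest library gave the 187 bp gap. On either side the rest of the 663 bp ORF was covered. Before the gap the level was 0.527 and 0.570 in short-fragment libraries and 0.317 and 0.384 in long-fragment ones, and after it 0.448 and 0.450, and 0.237 and 0.341.

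With OsTIR1 the gap took in the whole HIS3 ORF and sequence on both sides. Its left edge lay at bases 721872 to 721900 in the 7 libraries and its right edge at bases 722649 to 722668 in 6 of them, with lengths of 750 to 787 bp. In the other, OsTIR1 high replicate 1, 1 fragment reached inwards to base 722551 and the gap read 661 bp. The median edges, 721886 and 722650, lay 60 bp before the HIS3 start codon and 42 bp past its stop codon. They left 177 bp between the gap and the MRM1 start codon, and 260 bp between the gap and the DED1 start codon. The gap without OsTIR1 lay wholly inside the gap with OsTIR1.

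A scan of 120409 tiles of 100 bp over the nuclear genome, fitted in the same way, gave 7 with an adjusted p under 0.05, or 0.00581% of tiles. Of these, 5 (0.00415%) were lower with OsTIR1 and all 5 lay in or beside HIS3. Their means with OsTIR1 were under the filter of 0.1, so they entered the test only through the strain without OsTIR1, and their count is a description. The tile starting at base 721901 had a mean of 0.909 without OsTIR1 and 0 with it. The tile starting at 722001 had means of 0.521 and 0, and that at 722101 had 0.365 and 0. The tiles starting at 722501 and 722601, on the other side of the internal gap, had 0.543 and 0.000285, and 0.732 and 0.0579. The other 2 tiles called (0.00166%), both higher with OsTIR1, lay upstream of ADH1. At an unadjusted p under 0.05 there were 7820 tiles. With trended, robust variance 2 tiles were called, both higher and none lower, and with the labelled dose in place of fragment length 4, all lower.

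In the short-fragment libraries the strain without OsTIR1 had 3 nucleosome peaks over HIS3, each seen in both libraries. They lay 5, 159 and 643 bp from the start codon, with heights of 0.982, 0.649 and 1.11. The strain with OsTIR1 had none of the 3 in any of its 4 libraries. Peaks on either side of the gap were paired between the strains. The first MRM1 peak was at base 721677 without and 721676 with OsTIR1, and the first DED1 peak at 722948 and 722955.

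**Figure D3:**
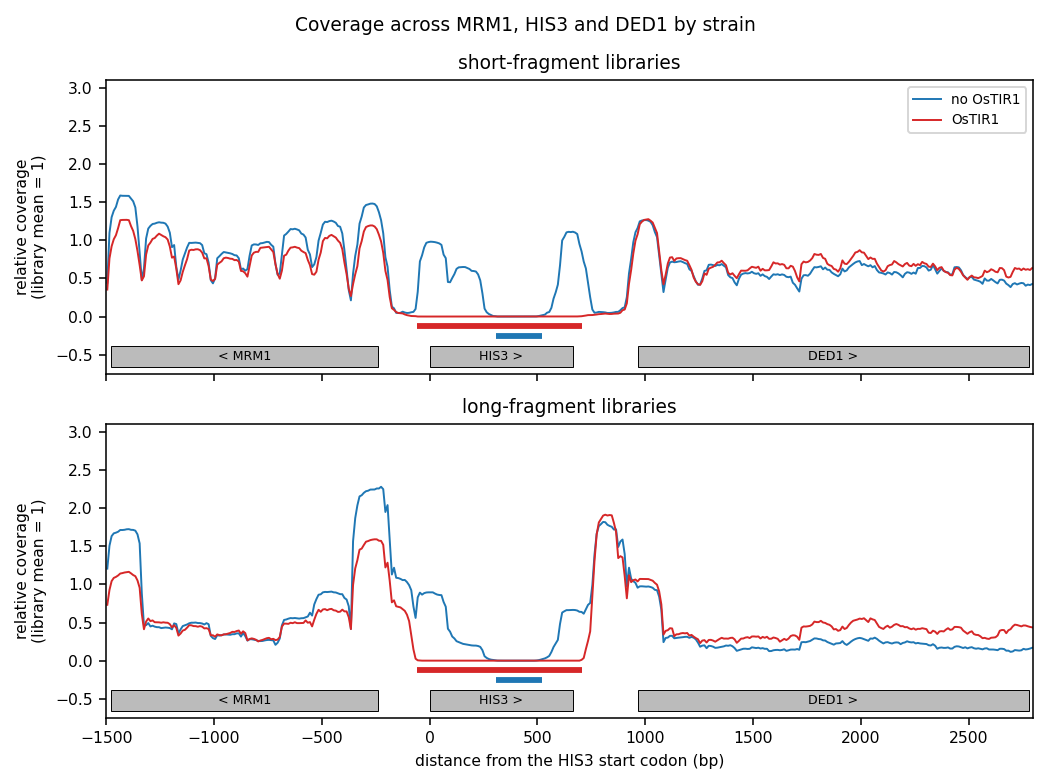
Mean relative coverage (library mean = 1, bins of 10 bp) across MRM1, HIS3 and DED1 against distance from the HIS3 start codon, for short-fragment (top; 2 libraries without and 4 with OsTIR1) and long-fragment libraries (bottom; 2 and 3). Blue is the strain without OsTIR1 and red the strain with it, thick lines mark the gap between the median edges of each strain, and grey boxes are ORFs. The blue gap lies inside HIS3, and the red gap spans the whole ORF.

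MRM1 encodes a methyltransferase of mitochondrial ribosomal RNA and lies on chromosome XV at bases 720470 to 721708 on the - strand, so that it shares its 237 bp upstream region with HIS3. Its body coverage was lower with OsTIR1 in both fragment length classes. In short-fragment libraries it was 1.03 and 0.979 without OsTIR1 and 0.805 to 0.874 with it (median 0.842). In long-fragment libraries it was 0.802 and 0.771 without OsTIR1 and 0.657, 0.615 and 0.594 with it. The ranges were apart within each class. Among 5976 ORF bodies, 1.12% were apart with OsTIR1 below in both classes, and 3.78% with OsTIR1 above.

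In the fit across all ORFs MRM1 fell by 0.36 on the log2 scale (SE 0.0489, adjusted p = 0.0393). It ranked 2 by p, after HIS3, and its adjusted p depends on HIS3 being among the ORFs tested. With the filter at 0.5, which left out HIS3, the limma adjusted p of MRM1 was 0.0779. The call was close to the threshold and held in 3 of the 21 alternative fits of MRM1. The direction was lower in all 21, with log2 changes from -0.37 to -0.18 and adjusted p from 0.0295 to 0.981. Of the 11 fits that left out 1 library, the call held without OsTIR1 low replicate 2 (adjusted p = 0.0411) and without OsTIR1 high replicate 2 (0.0295). It was lost without any of the other 9, with adjusted p from 0.0877 to 0.632.

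Bins along MRM1 were lower with OsTIR1. Of the 12 whole 100 bp bins in the ORF, all 12 had a lower mean with OsTIR1 in short-fragment libraries, 7 of them with ranges apart. Over 81337 tiles of 100 bp inside ORFs the shares were 44.8% with a lower mean and 5.13% with OsTIR1 apart below. In long-fragment libraries 8 of 12 had a lower mean and 3 had ranges apart, the 3 nearest to HIS3, beside 24.5% and 4.63% of tiles inside ORFs. The short-fragment bin at bases 720470 to 720569, at the far end of MRM1, had means of 1.53 and 1.18, and the bin at bases 721570 to 721669, near HIS3, had 1.02 and 0.795. All 8 MRM1 peaks were paired between strains. The next gene on that side, BFR1, which encodes an RNA-binding protein of polysomes, had a log2 change of 0.00 (SE 0.125, adjusted p = 0.993).

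The shared upstream region of MRM1 and HIS3 was also lower with OsTIR1. In short-fragment libraries its coverage was 0.392 and 0.503 without OsTIR1 and 0.165 to 0.192 with it, and in long-fragment libraries 0.946 and 1.49, and 0.441 to 0.697. Part of this region lies inside the gap of the OsTIR1 strain. Read as the 250 bp before each start codon, the MRM1 promoter had a log2 change of -0.71 (SE 0.209) and the HIS3 promoter -0.56 (SE 0.194). Both had an adjusted p of 0.883 in limma, so neither passed. They had the lowest and second lowest log2 change of the 5972 promoters tested. Without OsTIR1 high replicate 2 the changes were -0.44 (adjusted p = 0.0559) for MRM1 and -0.30 (adjusted p = 0.122) for HIS3. In the short-fragment libraries alone, with no digestion term, both passed (adjusted p = 0.00135 for MRM1 and 0.00718 for HIS3). Among 5976 promoters, 3.13% had OsTIR1 below in both classes, these 2 among them.

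The 1 kb window upstream of HIS3, which holds this region and most of MRM1, was lower with OsTIR1 by 0.223 (mean of the differences within fragment length classes). Its level was 0.859 ± 0.029 (SD, n = 4) without OsTIR1 and 0.639 ± 0.035 (SD, n = 7) with it. The lowest of the first group was 0.838 and the highest of the second 0.679. A two-sided exact permutation test of strain within class gave p = 0.00667, the smallest its 150 arrangements allow, and 0.06 after Benjamini-Hochberg adjustment over the 9 windows compared. The gap of the OsTIR1 strain takes up the end of this window nearest to HIS3.

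DED1 encodes a DEAD-box RNA helicase required for the start of translation and lies on chromosome XV at bases 722911 to 724725 on the + strand. Its body coverage did not pass the test. In short-fragment libraries it was 0.643 and 0.558 without OsTIR1 and 0.581 to 0.809 with it, with overlapping ranges. In long-fragment libraries it was 0.277 and 0.224 without OsTIR1 and 0.257, 0.531 and 0.480 with it, also overlapping. The log2 change was 0.16 (SE 0.189, adjusted p = 0.742). It was -0.09 when OsTIR1 high replicate 2 was left out. In long-fragment libraries 10 of 17 bins of DED1 were above the range of the strain without OsTIR1 and none below it, and in short-fragment libraries 2 of 17 were above. Of all tiles inside ORFs, 30.9% were above in long-fragment and 6.24% in short-fragment libraries, so that bins apart above were common in the long-fragment class.

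The coverage of the 302 bp between HIS3 and DED1 differed between fragment length classes in both strains. With OsTIR1 its coverage was 0.131 to 0.155 in the short-fragment and 0.837 to 1.29 in the long-fragment libraries. Without OsTIR1 it was 0.371 and 0.431, and 1.15 and 1.35. The strains were apart in the short-fragment class and overlapped in the long-fragment class. In the bin at bases 722770 to 722869, outside the gap of both strains, the means without and with OsTIR1 were 0.108 and 0.0757 in short-fragment libraries and 1.55 and 1.49 in long-fragment libraries. The strains overlapped in both classes there. In the bin at bases 722670 to 722769, just past the OsTIR1 gap, the short-fragment means were 0.151 without and 0.0269 with OsTIR1. Ranges in that class were apart, with OsTIR1 below. The long-fragment means of that bin were 1.39 and 1.28, with overlapping ranges. The bin at bases 722570 to 722669, which lies mostly in the gap of the OsTIR1 strain, had means of 1.01 and 0.00258, and 0.653 and 0.00910. The DED1 promoter as 250 bp had a log2 change of 0.23 (SE 0.272, adjusted p = 0.937), which turned to -0.48 in short-fragment libraries alone, with no digestion term, to -0.42 with the labelled dose as the term, and to -0.46 with no digestion term.

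ADH1 lies on chromosome XV at bases 159548 to 160594 on the - strand, and the coverage of its promoter was higher with OsTIR1. The 250 bp before its start codon had a relative coverage of 0.744 and 0.755 in short-fragment and 1.04 and 0.914 in long-fragment libraries without OsTIR1. With OsTIR1 it was 1.42, 1.29, 1.59 and 1.42 in short-fragment and 1.76, 2.32 and 1.88 in long-fragment libraries. All 7 values with OsTIR1 lay above all 4 without it. Untreated and auxin libraries overlapped.

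The log2 change of the ADH1 promoter was 1.01 (SE 0.0891, limma adjusted p = 0.000564). It was the 1 promoter called of 5972, or 0.0167%; 324 had an unadjusted p under 0.05. It was called in 18 of 21 alternatives. The exceptions were the fit with the labelled dose (adjusted p = 0.990), that with no digestion term (0.954) and that with only untreated OsTIR1 libraries (0.0532), where its log2 change was 0.87, 0.87 and 0.97. Among 5976 promoters, 0.184% had OsTIR1 above in both classes, ADH1 among them. The library labelled OsTIR1 high replicate 2, whose mean fragment length was the longest, had the highest ADH1 promoter value, and without it the log2 change was 0.96, the lowest of the range of 0.96 to 1.05 seen when 1 library was left out. Without that library 958 promoters were called, 954 of them higher with OsTIR1.

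The extent of the raised stretch depended on the fragment length class. A fit of 1 raised segment gives 2 ends whatever the data, so its ends are a description. The best single raised segment in the log2 ratio of the strain means, read in the short-fragment libraries, ran from 34 to 313 bp upstream of the start codon, at bases 160628 to 160907 (280 bp). Inside it the log2 ratio was 0.97, and outside it the mean over the rest of the region was 0.00. Taken 1 library at a time against the mean of the strain without OsTIR1, the far end was at 313 bp in all 4 short-fragment OsTIR1 libraries. The near end was at 14 bp in 3 and at 94 bp in 1. In long-fragment libraries the best segment was longer, from 1260 to 1520 bp, with its far end at 353 or 393 bp and its near end inside the ADH1 ORF in 2 libraries and past the end of the ORF in 1. The mean over both classes gave 1420 bp, with a log2 ratio of 0.52.

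Within the 280 bp stretch the mean level was 0.682 ± 0.013 (SD, n = 2) without OsTIR1 and 1.43 ± 0.22 (SD, n = 4) with it in short-fragment libraries, a ratio of 2.09. In long-fragment libraries it was 1.03 ± 0.16 (SD, n = 2) and 2.29 ± 0.47 (SD, n = 3), a ratio of 2.24. The stretch was found from these same values, so no test is given. The sequence just upstream of it was at 0.818 and 0.822 in short-fragment libraries and 1.77 and 2.01 in long-fragment libraries, without and with OsTIR1, with overlapping ranges. On the other side, the adjacent part of the ORF was 1.08 times higher in short-fragment and 1.38 times higher in long-fragment libraries, with ranges apart. Of all 100 bp tiles inside ORFs, 6.24% were apart above in short-fragment and 30.9% in long-fragment libraries. The label of yTL1290 gives it an ADH1 promoter in front of OsTIR1. Fragments from that copy and from the native promoter align to the same bases and cannot be told apart.

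The 2 called tiles, starting at bases 160701 and 160801, had means of 0.786 and 1.68, and 0.867 and 2.14, without and with OsTIR1. Their log2 changes were 1.20 (SE 0.119, limma adjusted p = 0.00591) and 1.48 (SE 0.177, limma adjusted p = 0.0350). The peak nearest to them lay at -221 bp from the start codon without OsTIR1 and at -228 bp with it, with heights of 0.660 and 1.73. With OsTIR1 the mean profile had a further peak at -70 bp, with a height of 1.62, which was not counted by library. The other strain had no peak paired with it. The nearest peak of that strain lay 21 bp inside the ORF (height 0.988, found in 1 of 2 libraries). Peaks less than 100 bp apart were not both called, so a gained peak cannot be read from this. Upstream of all these, the next peak was at -511 and -510 bp in the 2 strains. Further upstream the ratio went both ways. In short-fragment libraries its log2 value ran from -0.66 at 674 bp to 0.44 at 1174 bp, and in long-fragment libraries from -0.60 at 614 bp to 0.86 next to the raised stretch.

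**Figure D4:**
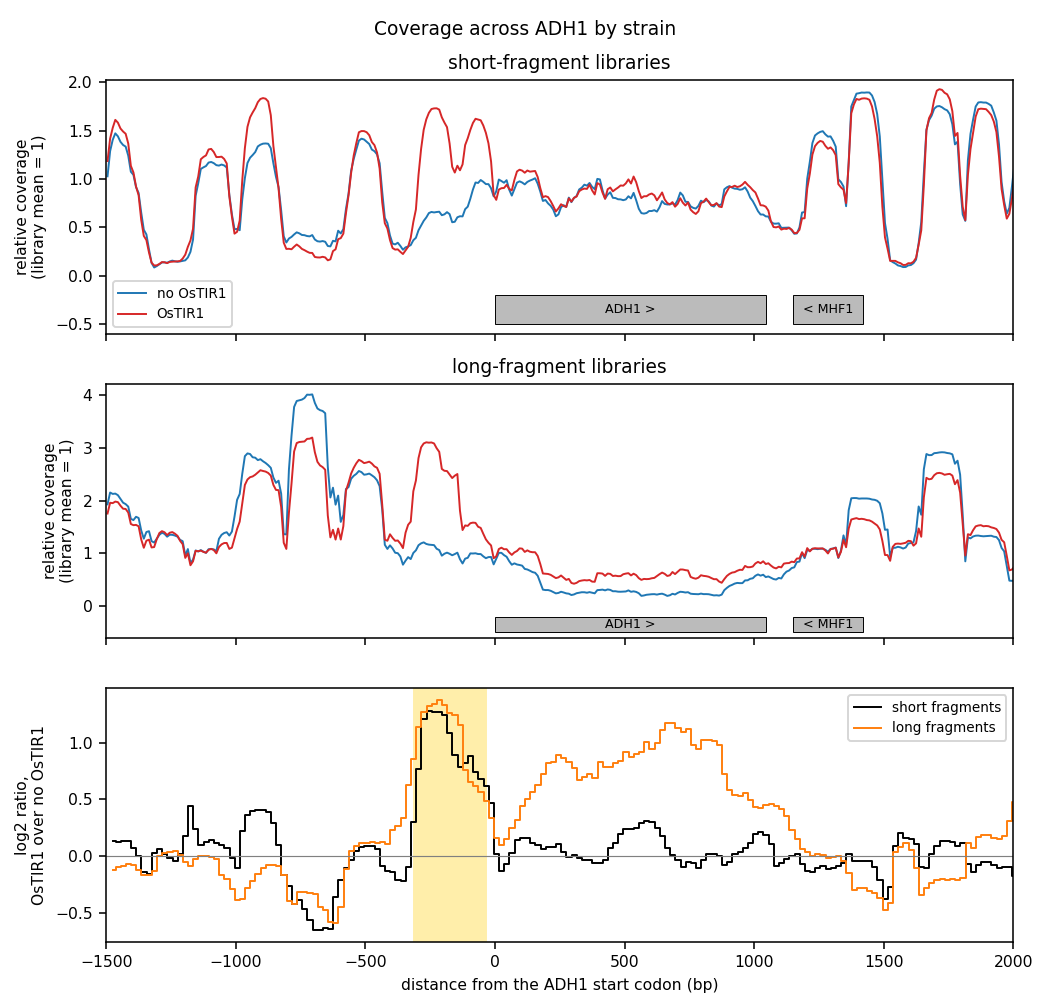
Mean relative coverage (library mean = 1) across ADH1 against distance from its start codon, for short-fragment (top; 2 libraries without and 4 with OsTIR1) and long-fragment libraries (middle; 2 and 3), and the log2 ratio of the strain means in 20 bp bins (bottom). Yellow marks the 280 bp raised segment of the short-fragment libraries. There the ratio reaches 1.28 in short-fragment and 1.38 in long-fragment libraries, and over the ORF it is raised in the long-fragment libraries.

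The ADH1 ORF itself did not pass the test, with a log2 change of 0.22 (SE 0.177, limma adjusted p = 0.612). In short-fragment libraries its coverage was 0.816 and 0.807 without OsTIR1 and 0.769 to 0.937 with it, with overlapping ranges. In long-fragment libraries it was 0.425 and 0.329 without OsTIR1 and 0.478, 0.841 and 0.674 with it, with ranges apart. Of all 100 bp tiles inside ORFs, 30.9% were apart above in the long-fragment libraries. The mean fragment lengths of these libraries differed too, at 161.1 and 160.3 bp without OsTIR1 and 149.8, 162.2 and 150.1 bp with it, and their part in this was not tested. When OsTIR1 high replicate 2 was left out the ADH1 log2 change was -0.02.

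The 1 kb window upstream of ADH1 was higher with OsTIR1 by 0.217 within classes (exact permutation p = 0.02, and 0.09 after adjustment over the 9 windows). The raw p was no longer under 0.05 when any 1 of the 4 libraries without OsTIR1 was left out (exact permutation p of 0.0667 to 0.0833), or OsTIR1 auxin high replicate 2 (0.05). It was 0.0556 with untreated OsTIR1 libraries only, 0.247 after scaling to the median ORF body, where the difference was 0.119, and 0.7 within labelled doses, where it was 0.117. Its level ran from 0.691 to 2.05 without OsTIR1 and from 0.860 to 2.37 with it, the classes being far apart. The other 7 windows, on both sides of LEU2, LYS2 and URA3 and downstream of HIS3, had exact permutation p-values of 0.107 to 0.593. Their strain differences were between -0.0781 (LYS2 downstream) and -0.0157 (HIS3 downstream).

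**Figure D5:**
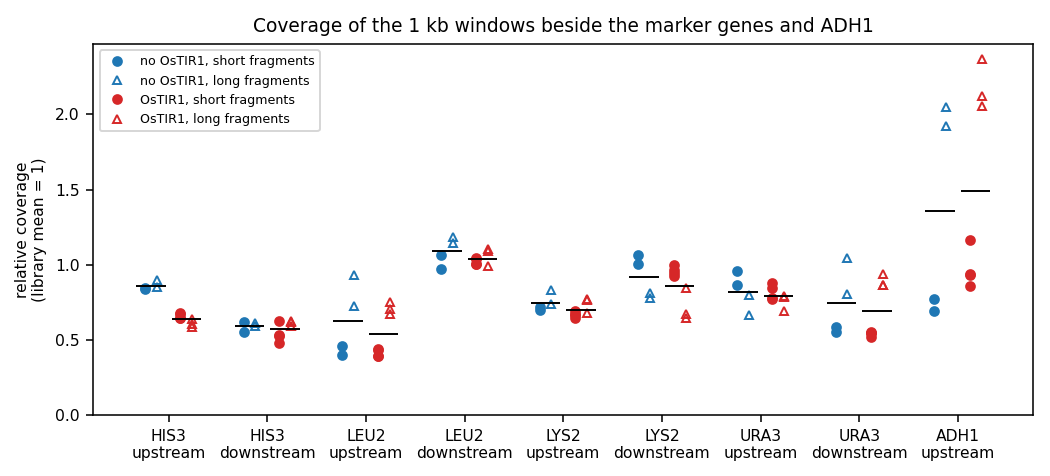
Relative coverage (library mean = 1) of the 1 kb windows upstream and downstream of HIS3, LEU2, LYS2 and URA3 and upstream of ADH1 in each of the 11 libraries. Filled circles are short-fragment and open triangles long-fragment libraries, and black bars are strain means. The strain ranges of the HIS3 upstream window, 0.838 to 0.902 and 0.584 to 0.679, do not overlap.

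Other genes of the same pathways had ordinary coverage in both strains. Of the 7 histidine genes HIS1 to HIS7, 1 was called (HIS3, lower), beside 2 of all 5973 ORFs (0.0335%). HIS3 entered the test only through the strain without OsTIR1. The median log2 change of the 7 was -0.02, beside -0.03 over all 5973 ORFs. HIS7 had the second lowest change, -0.19 (SE 0.056, adjusted p = 0.441). Among the 7 leucine genes 6 could be tested, among the 9 lysine genes 8 and among the 9 uracil genes 8, the untested member being the deleted marker each time. None of these was called, and the median log2 changes were -0.03, 0.00 and 0.04. The 7 alcohol dehydrogenase genes ADH1 to ADH7 gave no call either, with a median of -0.09. With 0.0335% of all ORFs called, lists this short would mostly hold no call.

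Marker genes that other laboratory strains lack were covered. The 5 genes MET17 (O-acetylhomoserine sulfhydrylase), TRP1 (tryptophan synthesis), ADE2 (adenine synthesis), CAN1 (arginine permease) and LYP1 (lysine permease) had body coverage of 0.408 to 1.40 over all libraries. None of the 5 passed the test. MET17 had the largest change, with means of 1.06 ± 0.15 (SD, n = 4) and 1.31 ± 0.08 (SD, n = 7) and a log2 change of 0.23 (SE 0.066, adjusted p = 0.441).

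After removal of the linear trend on fragment length, the ORF bodies whose log2 coverage followed that of HIS3 most closely over the 11 libraries were MRM1 (Pearson r = 0.947), HMLALPHA1 (0.927) and YBR220C (0.917), of 5972 compared. The promoters closest to that of ADH1 were those of PLB2 (0.970), YLR302C (0.939) and DNM1 (0.937), of 5971. All points share the same 11 libraries, and these were the highest of all features compared, so they are a description. Of the 6, MRM1 alone passed the strain test. HIS3 coverage differed mainly by strain, so likeness to HIS3 largely repeats the strain comparison and is no separate support for MRM1.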

How the data were processed

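Per the labels, nucleosomal DNA of formaldehyde-fixed spheroplasts was sequenced. Bowtie2 and build sacCer3 are named in the submitters' processing notes; the handling of duplicates and of multiply placed reads is not given in the sources used here. The deposited files give the authors' coverage, the count of fragments of 95 to 225 bp over every base, per the text inside them. A second deposited list was this coverage divided by the fragment count of the contig and was not used. A fragment that crosses a gap is too long on the reference to pass this size filter, so coverage near an edge holds only fragments that end before it.

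Coverage was divided by the library mean over 16 chromosomes without ribosomal DNA. ORF bodies, the 250 bp before start codons and 100 bp tiles with a mean of at least 0.1 entered linear models in limma 3.58.1 (R 4.3.3) on the scale log2(relative coverage + 0.1), with strain and mean fragment length as terms and Benjamini-Hochberg adjustment at 0.05 over all features tested. Log2 changes understate those of features with low coverage. A gap edge is the first base with 0 fragments inward from the stretch under 0.2 in all libraries of the strain. Single fragments further than 40 bp inside it were counted separately. Peaks are maxima of coverage smoothed over 21 bp, at least 100 bp apart and at least 0.3 high. Annotation came from RefSeq (R64), of which 5976 of 6002 ORFs lay outside ribosomal DNA and over 1000 bp from contig ends. Sequences are not printed. Floors of 3 fragments cover counting error only.

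The 7 genes and the lists were chosen with earlier results of these data known. Genes named are the members, genes in their 1 kb flanks as landmarks, members of pathway lists, and for HIS3 and ADH1 the 3 closest features.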

Additional observations from a re-analysis of the deposited data

Results flagged for a closer look

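Group values were screened for 1 library far from the rest of its strain, in 69 groups of 4 or 7 libraries. Chance flags about 5% of groups. That rate does not hold where all other libraries are at 0, as any trace of coverage is flagged there. The screen raised 9 flags. Of these, 5 are traces of coverage over a gene at 0 in the other OsTIR1 libraries. The HIS3 body was at 0.000349 in OsTIR1 high replicate 1, and at 0 in the other OsTIR1 libraries, both among all 7 and among the 4 short-fragment ones. The LYS2 body was at 0.000179 in OsTIR1 auxin low replicate 1 and at 0 in the other OsTIR1 libraries, in both groupings. The URA3 body was at 0.00111 in OsTIR1 low replicate 1 and at 0 in the other 6.

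In the library labelled no OsTIR1 low replicate 1 the LYS2 body was at 0.00233 and the LYS2 promoter at 0.00355, while the other 3 libraries without OsTIR1 were at 0 to 0.000379 and at 0. In OsTIR1 auxin high replicate 2 the HIS3 promoter was at 0.208, beside 0.242 in the other 3 short-fragment OsTIR1 libraries, and the MRM1 promoter at 0.157, beside 0.179 to 0.182. These 2 promoters share most of their bases.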

How the results depend on the processing

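The main tests called 2 ORF bodies, 1 promoter and 7 tiles. With the labelled nuclease dose in place of fragment length they called 1, 0 and 4, with no digestion term 1, 0 and 4, and with only untreated OsTIR1 libraries 1, 0 and 3. In short-fragment libraries alone, with no digestion term, they called 1 ORF body, 3 promoters and 5 tiles. A pseudocount of 1 gave 1, 1 and 5, and scaling to the median ORF body 1, 1 and 7. A filter at 0.5 left out HIS3 and gave 0 ORF bodies (638 at an unadjusted p under 0.05), 1 promoter and 1 tile. Trended, robust variance gave 0 ORF bodies, 1 promoter and 2 tiles. Tiles of 50 bp gave 11 and of 200 bp 3. Leaving out 1 library at a time gave 0 to 3 ORF bodies, 1 to 958 promoters and 3 to 3690 tiles, with 3 tiles, none of them higher, without no OsTIR1 high replicate 1 or high replicate 2. The highest counts came without OsTIR1 high replicate 2, where 3466 of the 3690 tiles were higher with OsTIR1; the cause was not tested. The median log2 change of all promoters was 0.06, and -0.14 with the labelled dose and -0.15 with no digestion term.

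The differences between replicates 1 and 2 had correlations of -0.850 to 0.903 over 10 pairs of groups, 2 of them over 0.1. Fragment length was not removed from these differences. They therefore cannot tell whether same-numbered replicates share a source, and the numbers are used here only to name libraries. The replicate block with fragment length gave 1 ORF body, 1 promoter and 7 tiles, and MRM1 then had an adjusted p of 0.108.

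Directions turned for the DED1 promoter (-0.42 with the labelled dose, -0.46 with no digestion term, -0.48 in short-fragment libraries) and, without OsTIR1 high replicate 2, for the bodies of ADH1 and DED1. With 1 library left out the log2 change of the ADH1 body ran from -0.024 to 0.34 and that of the DED1 body from -0.090 to 0.30. None of these was called. Among window differences, URA3 upstream turned to 0.00358 with untreated libraries only and LEU2 upstream to 0.00926 with 500 bp windows. With 1 library left out the URA3 downstream difference ran from -0.0898 to 0.0278 (without no OsTIR1 low replicate 1) and the HIS3 downstream difference from -0.0326 to 0.00110 (without no OsTIR1 high replicate 1). Windows with an exact permutation p under 0.05 numbered 2, and 1 with the labelled dose, 0 with untreated libraries only, 4 with 500 bp windows and 1 to 3 with 1 library left out.

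The median length of the longest uncovered run depended on its definition. For HIS3 without OsTIR1 it was 200 bp, and 229 bp under 0.01 and 285 bp under 0.05 of the library mean. For HIS3 with OsTIR1 it was 767 bp, and 895 bp under 0.05 and 651 bp where shared by all libraries. For LEU2 without OsTIR1 it was 1505.5 bp, and 1518 bp under 0.01, 1733.5 bp under 0.05, 1496 bp shared and 1708 bp between edges, an alternative added after seeing the data. For LEU2 with OsTIR1 it was 1498 bp, and 1512, 1734 and 1709 bp under 0.01, under 0.05 and between edges. The run shared by all libraries was 820 bp (no OsTIR1) and 2763 bp (OsTIR1) for LYS2 and 547 bp for URA3 with OsTIR1, where single fragments break it. For URA3 without OsTIR1 it was 1120.5 bp under 0.05. Leaving out 1 library gave 187 to 213 and 759 to 770.5 bp for HIS3, 1504 to 1507 and 1498 to 1503.5 bp for LEU2, 3184 to 4490 and 4495 to 4496 bp for LYS2, and 1094 to 1105 and 1094.5 to 1095 bp for URA3, without and with OsTIR1. The raised ADH1 segment was 1420 bp, 280 bp in short-fragment libraries, and 1220 to 1460 bp with 1 library left out; its levels over the 280 bp stretch were added after seeing the data.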
